A study of Mus musculus with 108 samples.

Results

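Hippocampal tissue of mice at postnatal day 28 (P28) was compared with hippocampal tissue at the day of birth (P0). The P28 group held 3 libraries and the P0 group 3 libraries, 6 of the 15 tissue libraries of the study, and they were taken by the age given for each tissue sample. The other samples of the study were 9 tissue libraries of P7, P14 and P21 and 93 single neurons, and of these only the tissue libraries entered the model, where they helped to estimate the spread between replicates. All 6 libraries were made from total RNA extracted with an AllPrep kit, amplified as cDNA with version 4 of a SMARTer kit and cut with Nextera transposase. The labels give no treatment and no mutation, and the strain, the sex and the number of animals behind a library are not given in the sources used here. The replicates are described as independent, without saying what was independent.

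As background, the mouse hippocampus at birth is still growing axons and dendrites, the granule cells of the dentate gyrus are mostly not yet born, and there are almost no myelin-forming cells. Over the first postnatal weeks synapses form, neurons switch from growth-cone proteins to those of stable axons and synapses, and astrocytes and oligodendrocytes mature. Many protein families keep one gene for dividing or growing cells and a paralogue, a related copy, for mature ones, so the same step can be followed within a family.

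The 6 libraries held between 2341677 and 13209907 reads assigned to genes, and P0 replicate 1 was the smallest. Values are reads of a gene per 1000000 reads of its library (CPM) after TMM scaling, so they are shares of a library and not amounts per cell. Log values correlated at 0.9846 to 0.9879 between P28 libraries and at 0.9728 to 0.9888 between P0 libraries. P0 replicate 1 stood apart in genes of the sex chromosomes: it had 137.2 CPM of Xist, the RNA that silences an X chromosome in females, and no read of Ddx3y, Eif2s3y, Kdm5d or Uty, genes of the Y chromosome. The other 5 libraries had at most 1.22 CPM of Xist and 178 to 196 CPM summed over the Y genes. Without P0 replicate 1 the test called 4714 genes higher and 4494 lower, against 4846 and 4619 with it.

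Of 14737 genes tested with edgeR's quasi-likelihood F test, 4846 were higher at P28 (32.9% of those tested) and 4619 were lower (31.3%), at a Benjamini-Hochberg adjusted p under 0.05. Together they were 64.2% of all genes tested, and each count below is read against these shares. With at least a 2-fold difference asked for as well, 2476 genes were higher (16.8%) and 1808 lower (12.3%). The 3 P28 values and the 3 P0 values did not overlap for 10116 genes (68.6%), among them 9091 of the genes called. Genes called higher took 54.1% of CPM at P28 and 28.8% at P0. Genes called lower took 22.7% at P28 and 45.6% at P0. The median log2 fold change over all genes was 0.004. Scaling by library totals alone lowered this median by 0.151 and gave 4082 genes higher and 5654 lower, so that 41.9% of calls were higher, against 51.2% with TMM scaling.

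**Figure D1:**
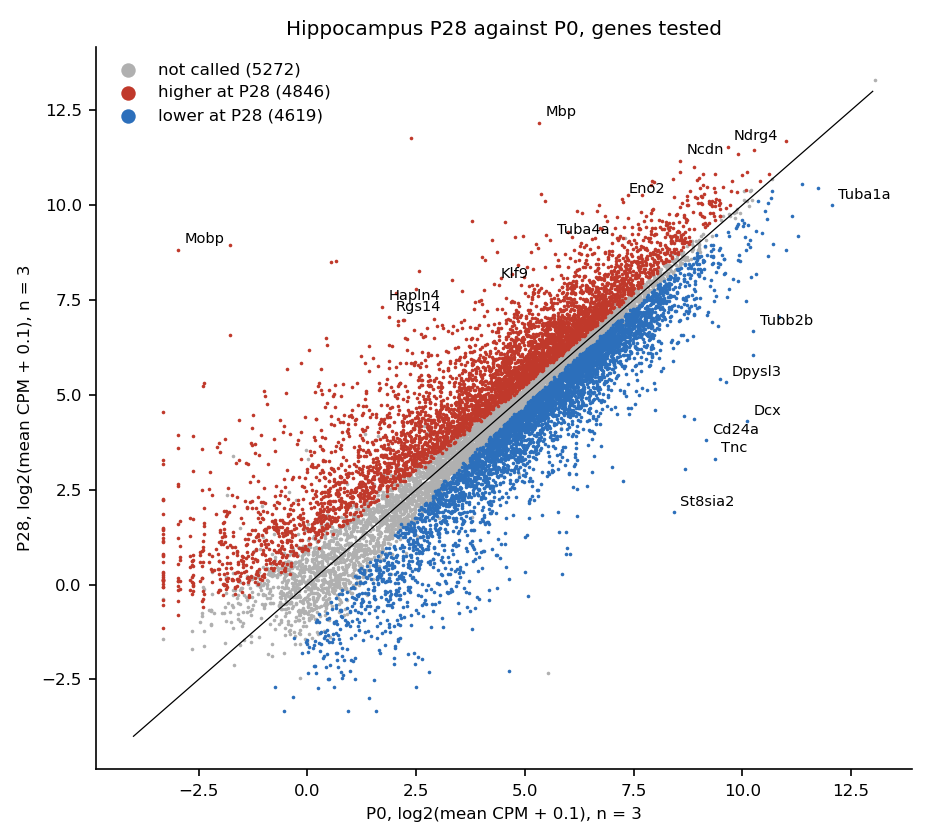
Mean level of each gene tested at P28 (vertical axis, log2 of mean CPM plus 0.1) against P0 (horizontal axis, the same scale), with 3 libraries per age. Red genes were called higher at P28 (4846), blue lower (4619) and grey not called (5272). The line marks equal levels. Mobp and Mbp lie far above it and St8sia2, Tnc and Dcx far below it.

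In CPM, the largest gains included those of the myelin gene Mbp and of Ndrg4, Ncdn, Cpe, Aldoa, Snap25, Chn1 and Slc17a7. Ndrg4 (8:95676980-95715119, plus strand, mm10) had 3071, 3052 and 2807 CPM at P28, against 794, 827 and 807 CPM at P0 (log2 fold change 1.88, SE 0.08, adjusted p = 6.25e-14). Ncdn, which encodes neurochondrin, a protein of dendrites, had 2220, 2352 and 2355 CPM at P28, against 312, 421 and 414 CPM at P0 (log2 fold change 2.59, SE 0.12). Chn1, which encodes the Rac regulator chimaerin, had 1775, 1460 and 1528 CPM at P28, against 291, 231.04 and 210.8 CPM at P0 (log2 fold change 2.71, SE 0.11). For all 3 genes every P28 library was above every P0 library and the replicates lay close together. The largest losses were those of the tubulin genes Tuba1a, Tubb3 and Tubb5, of Mtap1b, D0H4S114, Crmp1, Eif4g2, Stmn2, Dpysl5 and Eef1a1. D0H4S114, annotated as Nrep, a protein of regenerating and growing neurons, had 141, 103.6 and 156 CPM at P28, against 2212, 1635 and 1707 CPM at P0 (log2 fold change -3.79, SE 0.17). Eif4g2, a translation initiation factor, had 914, 819 and 806 CPM at P28, against 2702, 2050 and 2021 CPM at P0 (log2 fold change -1.41, SE 0.12). P0 replicate 1 was the highest P0 library for both of these genes, and the groups did not overlap.

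By ratio, the largest increases among genes with at least 50 CPM included those of Mobp, Ttr, Fa2h, Mag and Mal, all but Ttr products of myelinating cells. Mobp had 485, 381 and 496 CPM at P28, against a single read in the 3 P0 libraries together, and the ratio of pooled CPM was 11492 with an exact 95% interval of 2062 to 453942 from counting error alone. Fa2h, which makes the hydroxylated fatty acids of myelin lipids, had 3056 reads at P28 and 3 at P0, a ratio of 805 (interval 275 to 3905). The largest decreases were St8sia2, Tnc, Dcx, 2610109H07Rik, Trim67 and Cd24a. St8sia2 (7:73939119-74013690, minus strand, mm10), the enzyme that adds polysialic acid to the adhesion molecule NCAM in the young brain, had 3.47, 4.22 and 3.24 CPM at P28, against 341, 321 and 368 CPM at P0 (log2 fold change -6.55, SE 0.16). 2610109H07Rik, annotated as Draxin, a repellent of growing axons, had 0.97, 1.07 and 1.31 CPM at P28, against 51.2, 62.1 and 60.7 CPM at P0 (log2 fold change -5.66, SE 0.24). Cd24a, a surface protein of young neurons, had 15.5, 15.3 and 10.9 CPM at P28, against 639, 534 and 537 CPM at P0 (log2 fold change -5.37, SE 0.14). The P28 and P0 values of these genes lay far apart, and the lower levels were already present at P14. St8sia2 averaged 343, 145, 5.18, 4.74 and 3.64 CPM at P0, P7, P14, P21 and P28, and 2610109H07Rik averaged 58.0, 14.8, 2.04, 0.802 and 1.12 CPM.

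Marker genes of cell types were read for the label of the tissue. The 10 markers of hippocampal neurons summed to 3215, 3410 and 3418 CPM at P28, against 1399, 1535 and 1523 CPM at P0. None was at 0 in either group. The same held for the 8 markers of striatum, so this does not tell the regions apart. Of the 10 markers of hippocampal neurons 6 were higher, among them Camk2a and Slc17a7. Another 3 were lower, among them Zbtb20 and Prox1, and 1 was not called. A sum of CPM is carried by the members with the most reads. Markers of striatum summed to 208.3 ± 18.9 CPM at P28 and 182.2 ± 8.42 CPM at P0 (SD, n = 3 each), those of thalamus and habenula to 194 to 212.9 CPM at P28 and 186 to 202.4 CPM at P0, and those of layered cortex to 513 to 531 CPM at P28 and 407 to 449.9 CPM at P0. Pou4f1 of the habenula and Themis of the cortex were at 0 in all 6 libraries. All 7 oligodendrocyte and all 6 microglial markers were higher, and all 6 markers of dividing cells and all 6 of newborn neurons were lower. Oligodendrocyte markers summed to 9063 to 11979 CPM at P28 and 85.4 to 102.95 CPM at P0, and markers of newborn neurons to 577 to 638 CPM at P28 and 3502 to 4256 CPM at P0. In bulk tissue, fewer cells of a type and less RNA per cell cannot be told apart, and this holds for every result below.

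Markers of the choroid plexus, the epithelium that borders the ventricle and makes cerebrospinal fluid, differed between P28 libraries. They summed to 84.9, 860.1 and 1031 CPM at P28, against 6.45, 7.99 and 6.68 CPM at P0, and 6 of 9 were called higher. Ttr, the transthyretin carrier of thyroid hormone, made up most of the sum in P28 replicates 2 and 3, with 39.8, 651 and 782 CPM at P28, against 3 reads in all at P0. P28 replicate 1 was the lowest at P28 and still above the P0 libraries. Markers of leptomeningeal fibroblasts summed to 381, 453 and 373 CPM at P28, against 171, 317 and 240.3 CPM at P0. Some members of the lists below, Col1a1 among them, are also markers of these tissues. The part of these tissues in the values and counts below was not tested.

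**Figure D2:**
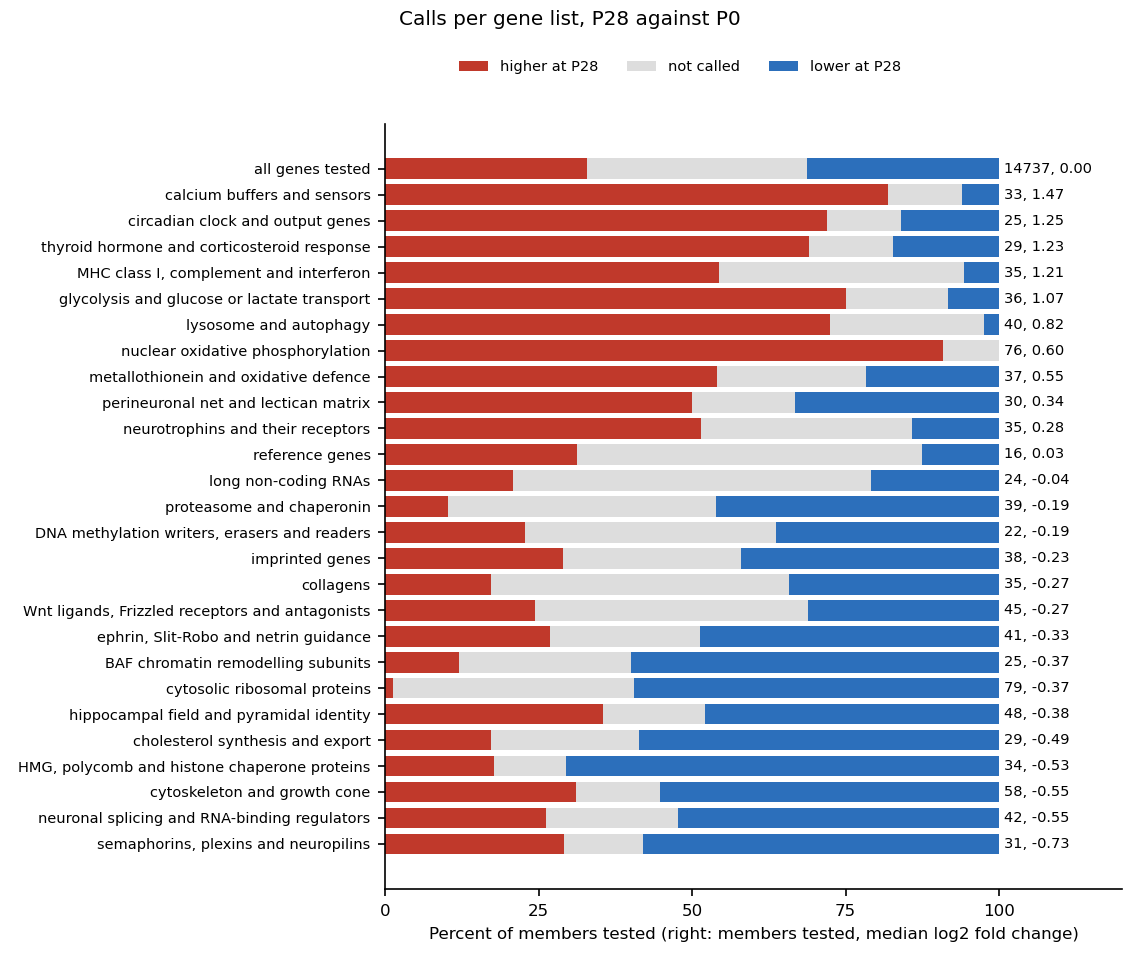
Calls in each of 26 gene lists and in all genes tested, as percent of members tested: higher at P28 (red), not called (grey) and lower at P28 (blue). The numbers at the right give the members tested and the median log2 fold change. Lists are ordered by the median, from 1.47 for calcium buffers and sensors to -0.73 for semaphorins, plexins and neuropilins, beside 0.00 for all genes.

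Pairs of paralogues were compared to see how members of a family differed. In most of the 38 pairs the first gene is known from dividing, immature or many tissues and the second from mature neurons or glia. The contrast is not that clear in all of them: Igf2bp2, Ccnd1 and Ptbp2, for example, stand second and are not genes of mature cells. In 12 pairs the first gene was lower and the second higher at P28. In 10 both were higher, in 9 both were lower. The log2 fold change of the second gene was above that of the first in 29 of the 38 pairs, a count over the pairs as listed. The pairs were chosen with earlier results of these data known, so these counts describe the list and are not a test. Only the changes are compared here, since levels of 2 genes in CPM also depend on their lengths.

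The tubulins, the subunits of microtubules, moved apart within both pairs. Tuba1a (15:98949837-98953703, minus strand, mm10), the alpha-tubulin of growing neurons, had 1122, 980 and 984 CPM at P28, against 5282, 3803 and 3741 CPM at P0 (log2 fold change -2.05, SE 0.12, adjusted p = 1.96e-11). Tuba4a (1:75214228-75219865, minus strand, mm10) had 557, 532 and 523 CPM at P28, against 46.4, 50.1 and 47.5 CPM at P0 (log2 fold change 3.48, SE 0.09, adjusted p = 2.04e-16). The 3 values of Tuba4a lay close together at each age, while Tuba1a had a high P0 library, replicate 1, and neither gene overlapped between the ages. The beta-tubulin Tubb2b had 104.1, 110.96 and 90.8 CPM at P28, against 1252, 1191 and 1221 CPM at P0, and Tubb4a of oligodendrocytes and mature neurons had 1014, 1023 and 1041 CPM at P28, against 386, 435 and 449 CPM at P0. Their log2 fold changes were -3.58 (SE 0.10) and 1.27 (SE 0.09). Tubulin genes are close copies of each other, so reads may have been split between members.

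The microtubule-associated proteins followed the same order. Mtap1b, the Map1b of growing axons, had 1357, 1304 and 1527 CPM at P28, against 3799, 3262 and 3164 CPM at P0 (log2 fold change -1.29, SE 0.11). Mtap1a, the Map1a of mature dendrites, had 194, 206 and 219 CPM at P28, against 43.6, 49.9 and 47.0 CPM at P0 (log2 fold change 2.13, SE 0.09). In translation, the elongation factor gene Eef1a1 had 1639, 1418 and 1436 CPM at P28, against 3070, 2429 and 2417 CPM at P0, and its neuronal and muscle paralogue Eef1a2 had 99.4, 116.8 and 107.01 CPM at P28, against 14.9, 24.9 and 22.3 CPM at P0. The difference between these 2 log2 fold changes was 3.11, and the 6 libraries did not overlap for either gene. Processed copies of Eef1a1 lie elsewhere in the genome, so its value is less certain.

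In the extracellular matrix, Tnc and Tnr, which encode tenascin-C of germinal zones and tenascin-R of perineuronal nets, gave the widest contrast of all 38 pairs, 7.87 on the log2 scale. Tnc (4:63959785-64047015, minus strand, mm10) had 9.43, 8.76 and 11.5 CPM at P28, against 674, 739.7 and 577 CPM at P0 (log2 fold change -6.06, SE 0.16, adjusted p = 2.53e-16). Tnr (1:159523769-159931729, plus strand, mm10) had 41.9, 45.4 and 49.3 CPM at P28, against 13.3, 12.6 and 13.1 CPM at P0 (log2 fold change 1.82, SE 0.14, adjusted p = 9.82e-10). Every Tnc value at P28 lay far below every value at P0. The lecticans Vcan and Bcan, large proteoglycans that bind hyaluronan, had log2 fold changes of -2.27 (SE 0.20) and 0.63 (SE 0.15).

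Chromatin genes held such pairs too. Ezh2 and Ezh1 are alternative enzymes of polycomb complex 2, which marks silenced genes, and Ezh2 is the one of dividing cells. Ezh2 (6:47530139-47595341, minus strand, mm10) had 8.32, 6.53 and 7.56 CPM at P28, against 48.0, 42.0 and 50.3 CPM at P0 (log2 fold change -2.65, SE 0.15, adjusted p = 1.28e-11). Ezh1 (11:101191115-101226463, minus strand, mm10) had 122.5, 108.9 and 104.7 CPM at P28, against 46.0, 39.2 and 50.2 CPM at P0 (log2 fold change 1.31, SE 0.10, adjusted p = 1.37e-09). Of the polycomb complex 1 readers, Cbx2 had 2.22, 3.97 and 3.16 CPM at P28, against 14.9, 12.3 and 13.8 CPM at P0, and Cbx7 had 22.5, 30.7 and 25.8 CPM at P28, against 1.61, 2.14 and 2.69 CPM at P0. The thyroid hormone receptor genes Thra and Thrb had log2 fold changes of -0.71 (SE 0.11) and 1.84 (SE 0.12), the splicing factors Rbfox2 and Rbfox1 of -1.05 (SE 0.09) and 0.73 (SE 0.08), and the hexokinases Hk2 and Hk1 of -0.93 (SE 0.22) and 0.75 (SE 0.09). The BAF remodelling ATPases moved least apart of the 12: Smarca4 had a log2 fold change of -0.61 (SE 0.09) and Smarca2 of 0.31 (SE 0.10), and the call of Smarca2 was lost without P0 replicate 2 and with scaling by library totals.

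**Figure D3:**
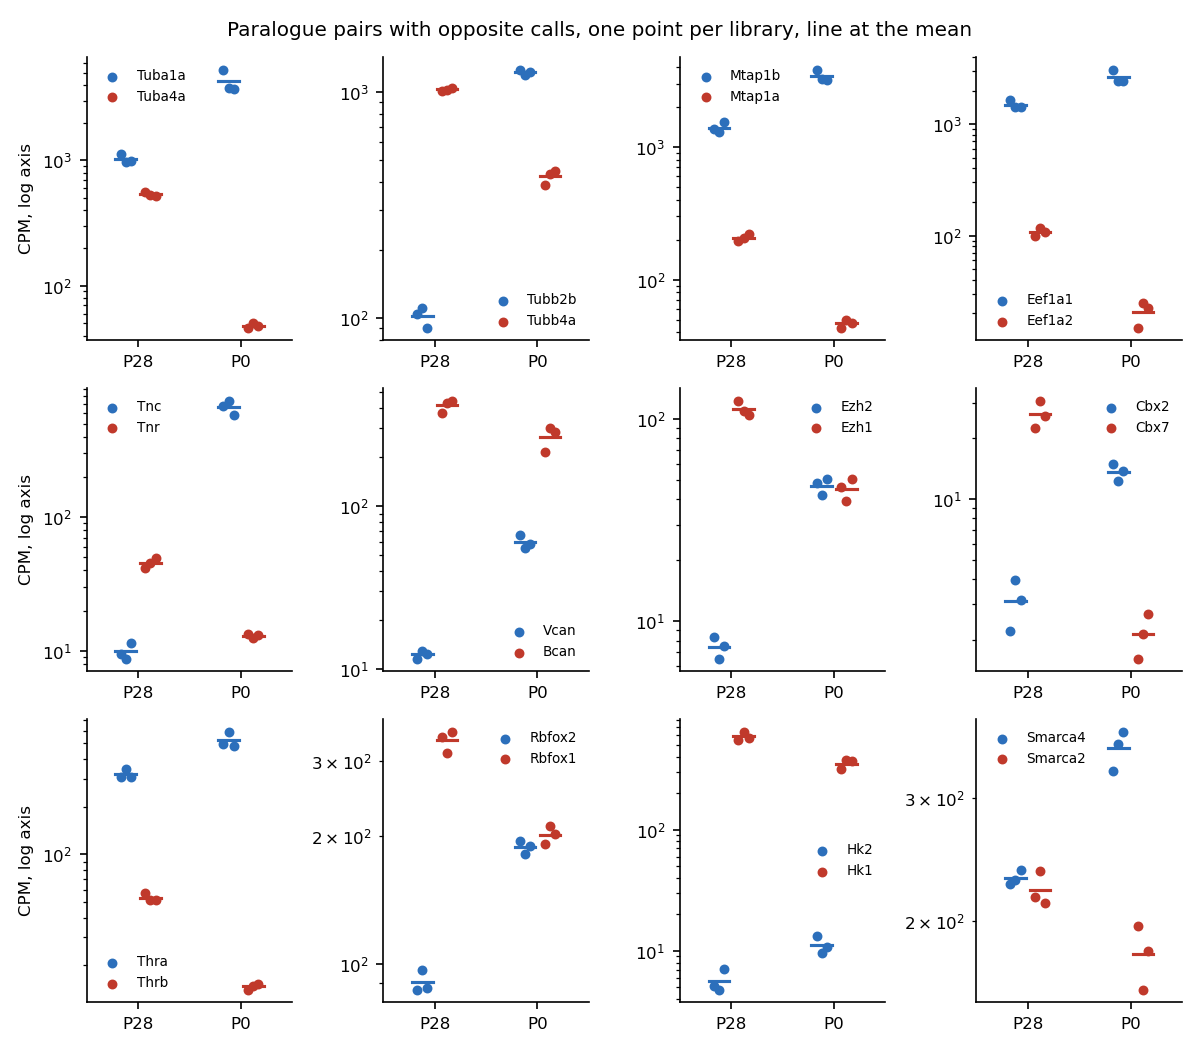
Level of both genes of the 12 pairs in which the first was lower (blue) and the second higher (red) at P28. Each point is a library, the short line is the mean of 3, P28 is at the left and P0 at the right of each panel, and the vertical axis is CPM on a log scale. The points of a gene do not overlap between the ages in any panel.

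Other pairs did not move in opposite directions. The BAF complex is known to exchange Actl6a, Dpf2 and Ss18 for Actl6b, Dpf1 and Ss18l1 when progenitors become neurons, and none of these 3 neuronal members was higher at P28 than at P0. Actl6a had 16.1, 13.7 and 15.1 CPM at P28, against 31.1, 31.4 and 28.9 CPM at P0 (log2 fold change -1.03, SE 0.14), and Actl6b had 112.8, 112.2 and 96.7 CPM at P28, against 111.3, 129.4 and 127.4 CPM at P0 (log2 fold change -0.21, SE 0.16, adjusted p = 0.258). Dpf1 and Ss18l1, the neuronal members, were lower at P28, with log2 fold changes of -1.21 (SE 0.13) and -1.08 (SE 0.08). Of the aldolases, both Aldoa and Aldoc were higher, by 2.30 (SE 0.08) and 1.96 (SE 0.07) on the log2 scale. Of the fatty acid binding proteins of radial glia and neurons, both Fabp7 and Fabp5 were lower, with log2 fold changes of -4.22 (SE 0.16) and -1.16 (SE 0.09).

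Genes of glycolysis, which splits glucose to pyruvate, and of related steps were mostly higher. The list also held transporters of glucose, lactate and pyruvate, pyruvate dehydrogenase and its kinases, and glycogen genes. Of its 36 members tested 27 were higher and 3 lower, with a median log2 fold change of 1.07. Eno2 (6:124760053-124769673, minus strand, mm10), the neuronal enolase, had 1214, 1142 and 1083 CPM at P28, against 138, 167 and 149 CPM at P0 (log2 fold change 2.91, SE 0.09, adjusted p = 2.63e-15). Aldoa had 1906, 1947 and 1770 CPM at P28, against 349.8, 399 and 389.9 CPM at P0. Slc2a1, the glucose transporter of the blood-brain barrier, had 229.2, 255 and 226.9 CPM at P28, against 38.3, 39.7 and 38.6 CPM at P0 (log2 fold change 2.60, SE 0.11). For each of these genes the lowest P28 library exceeded the highest P0 library several times over. Ldha, the lactate dehydrogenase subunit that favours lactate, had 562, 569 and 499 CPM at P28 and 521, 534 and 492 CPM at P0 (log2 fold change 0.08, SE 0.08, adjusted p = 0.419), and Ldhb, the other subunit, had 435, 428 and 449 CPM at P28, against 104.1, 116.2 and 123.2 CPM at P0 (log2 fold change 1.92, SE 0.09). With scaling by library totals 7 of the 36 were lower. Markers of endothelial cells, where Slc2a1 is known to be made, summed to 319, 309.7 and 340.8 CPM at P28, against 169.3, 195.2 and 167.6 CPM at P0, and 4 of 9 were called higher. Astrocyte markers summed to 3446, 3316 and 3619 CPM at P28, against 1836, 1643 and 1339 CPM at P0, and 5 of 7 were called higher. None of either list was at 0 in either group, and the part of these cells in the glycolysis genes was not tested. The 3 lower members with TMM scaling were Hk2 and the regulators Pfkfb3 and Pfkfb2. Pfkfb3, which makes the activator of phosphofructokinase, had 34.0, 28.195 and 35.0 CPM at P28, against 77.9, 81.6 and 81.1 CPM at P0 (log2 fold change -1.31, SE 0.14).

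The nuclear genes of mitochondrial respiration were higher almost throughout, by small amounts. Of 76 tested, 69 were higher and the other 7 were not called, with a median log2 fold change of 0.60 and only 9 at least 2-fold higher. With scaling by library totals 61 were higher and 1 lower (median 0.45), and after thinning libraries to the smallest total 64 were higher. By complex and with TMM scaling, 34 of 37 genes of complex I and 3 of 4 of complex II were higher. So were all 10 of complex III counted together with cytochrome c (Cycs), all 10 of complex IV and 12 of 15 of ATP synthase. Cox8a, a subunit of complex IV, had 222.6, 237.1 and 239.4 CPM at P28, against 60.1, 74.1 and 81.8 CPM at P0 (log2 fold change 1.67, SE 0.11). Genes of the mitochondrial genome were not in the table.

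Genes of protein synthesis and folding were lower more often than higher. Of 79 genes of cytosolic ribosomal proteins, 1 was higher and 47 lower, with a median log2 fold change of -0.37 and 3 at least 2-fold lower. Without P0 replicate 3 the counts were 3 higher and 40 lower, and without P28 replicate 1 they were 4 and 40. With scaling by library totals they were 1 and 57. The genes summed to 5946, 6104 and 6231 CPM at P28, against 8374, 8156 and 8948 CPM at P0. Rpsa, a protein of the small subunit, had 141, 139.7 and 139 CPM at P28, against 480.1, 472 and 477 CPM at P0 (log2 fold change -1.76, SE 0.17), and Rplp0, of the large subunit, had 172, 199 and 177 CPM at P28, against 433, 498 and 486 CPM at P0 (log2 fold change -1.37, SE 0.09). The gene called higher with all libraries was Rps21, which kept its call whichever library was left out, with 21.6, 30.8 and 40.9 CPM at P28, against 13.3, 15.1 and 19.9 CPM at P0 (log2 fold change 0.92, SE 0.21). Ribosomal protein genes have many processed copies in the genome, so single values are uncertain. All 8 subunits of the chaperonin that folds actin and tubulin were lower, with log2 fold changes of -1.12 to -0.43: Cct4 had 156, 139 and 138 CPM at P28, against 347, 305 and 293 CPM at P0. Of 31 proteasome subunits 4 were higher, 10 lower and 17 not called (median log2 fold change -0.12), beside 31.3% of all genes lower. Their largest increase was that of Psmc5 (log2 fold change 0.56, SE 0.07). Of the chaperonin and proteasome list together 56.4% were called, below the 64.2% of all genes. With scaling by library totals the chaperonin and proteasome list had 2 genes higher and 28 lower, against 4 and 18 with TMM scaling, and without P0 replicate 2 it had 2 genes higher.

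Genes of cholesterol synthesis were mostly lower. The brain makes its own cholesterol, and neurons clear it by turning it into a hydroxylated form. Of 19 enzymes of synthesis tested 15 were lower and 1, Ebp, higher, with a median log2 fold change of -0.76. Hmgcs1, an early enzyme of the pathway, had 567, 552 and 503 CPM at P28, against 1264, 1135 and 1076 CPM at P0 (log2 fold change -1.10, SE 0.10). The fall came after the first week, since Hmgcs1 averaged 1158, 1354, 643, 529 and 540.3 CPM at P0, P7, P14, P21 and P28. Of the 10 other members tested, which act in clearance, transport and regulation, 4 were higher, 2 lower and 4 not called. Over all genes tested 32.9% were higher and 31.3% lower, so these few genes show no common direction. Cyp46a1, the neuronal cholesterol hydroxylase, had 221, 260.3 and 214.1 CPM at P28, against 34.3, 30.3 and 38.3 CPM at P0 (log2 fold change 2.75, SE 0.13). Abcg1, an exporter, had 75.7, 73.0 and 92.7 CPM at P28, against 18.2, 15.99 and 17.8 CPM at P0 (log2 fold change 2.23, SE 0.12). Abca1, the other exporter in the list, was lower, with 32.7, 32.0 and 37.1 CPM at P28, against 83.5, 65.7 and 59.3 CPM at P0. Srebf2, the factor that switches on the synthesis genes, had 135.3, 157 and 154 CPM at P28 and 146, 185 and 189.6 CPM at P0 (adjusted p = 0.0673), and the groups overlapped.

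The promoter of Hmgcs1 is shown because it holds a sterol response element, the letters to which Srebf2 protein binds. It runs from 250 bases before to 50 after the transcription start (chr13:119690101-119690400, plus strand, RefSeq, GRCm38.p6). Capitals mark a match to TCACNCCAC, searched on both strands.
Hmgcs1: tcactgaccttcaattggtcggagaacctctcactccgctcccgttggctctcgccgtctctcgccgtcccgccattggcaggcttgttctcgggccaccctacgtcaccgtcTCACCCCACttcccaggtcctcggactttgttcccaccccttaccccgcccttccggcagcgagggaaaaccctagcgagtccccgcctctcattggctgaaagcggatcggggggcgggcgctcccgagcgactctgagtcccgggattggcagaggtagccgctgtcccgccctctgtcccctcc
The match lies upstream of the start site. Of 28 promoters found for 21 of the 29 cholesterol genes 1 held it (3.57%), beside 1.14% of the 14625 promoters of all genes tested. CCAAT, the box bound by the factor NF-Y, was in 20 of the 28 (71.4%), beside 37.3% of all promoters. In the rest of the 26 gene lists its share ran from 18.9% (semaphorins, plexins and neuropilins) to 64.9% (HMG, polycomb and histone chaperone proteins). These are matches of letters and say nothing of binding in these samples.

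HMG, polycomb and BAF proteins were lower more often than higher. Of 34 HMG proteins, polycomb proteins and histone chaperones 24 were lower and 6 higher (median log2 fold change -0.53), and of 25 BAF subunits 15 were lower and 3 higher (median -0.37). Of 22 genes of DNA methylation 8 were lower and 5 higher (median -0.19), and 59.1% were called, near the 64.2% of all genes. Hmgb2, a DNA-bending protein of dividing cells, had 2.91, 1.90 and 2.70 CPM at P28, against 18.96, 18.9 and 15.5 CPM at P0 (log2 fold change -2.83, SE 0.27). Of 8 HMG genes tested 7 were lower and the other was not called. Smarce1, a BAF subunit, had 27.3, 24.8 and 27.0 CPM at P28, against 83.5, 77.0 and 85.5 CPM at P0 (log2 fold change -1.64, SE 0.10). Among DNA methylation genes the maintenance factors Uhrf1 and Dnmt1 and the oxidising enzymes Tet1 and Tet3 were lower. Uhrf1, which guides Dnmt1 to newly copied DNA, had 0.693, 2.32 and 1.85 CPM at P28, against 16.1, 23.6 and 20.7 CPM at P0 (log2 fold change -3.57, SE 0.31). The de novo enzyme Dnmt3a had 93.3, 85.2 and 114.8 CPM at P28, against 183, 224.2 and 216.3 CPM at P0 (log2 fold change -1.09, SE 0.10). Zbtb4, which binds methylated DNA, and Gadd45b, a stress-induced gene tied to demethylation, were higher, with log2 fold changes of 1.54 (SE 0.12) and 1.51 (SE 0.21). The summed markers of dividing cells were 9.01 to 10.5 CPM at P28 and 117.4 to 158 CPM at P0, and their part in these changes was not tested.

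Promoters of 2 markers of dividing cells are printed beside these values, since genes of mitosis are known to share the CHR element TTTGAA near their start. Cdk1, the kinase that starts mitosis, had 0.416, 1.49 and 1.85 CPM at P28, against 17.3, 15.9 and 14.9 CPM at P0 (log2 fold change -3.55, SE 0.32). Top2a, the topoisomerase that untangles copied DNA, had 3.47, 1.82 and 2.24 CPM at P28, against 62.5, 62.7 and 41.2 CPM at P0 (log2 fold change -4.51, SE 0.25). Both promoters are 300 bases, from RefSeq on GRCm38.p6, and lie on the minus strand, at chr10:69352863-69353162 for Cdk1 and chr11:99024140-99024439 for Top2a. Capitals mark TTTGAA, or its reverse complement TTCAAA.
Cdk1: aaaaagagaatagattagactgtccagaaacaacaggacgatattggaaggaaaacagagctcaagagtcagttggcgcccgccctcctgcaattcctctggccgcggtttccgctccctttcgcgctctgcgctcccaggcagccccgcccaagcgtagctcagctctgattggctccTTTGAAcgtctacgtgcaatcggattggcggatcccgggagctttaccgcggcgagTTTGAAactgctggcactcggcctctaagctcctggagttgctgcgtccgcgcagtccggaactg
Top2a: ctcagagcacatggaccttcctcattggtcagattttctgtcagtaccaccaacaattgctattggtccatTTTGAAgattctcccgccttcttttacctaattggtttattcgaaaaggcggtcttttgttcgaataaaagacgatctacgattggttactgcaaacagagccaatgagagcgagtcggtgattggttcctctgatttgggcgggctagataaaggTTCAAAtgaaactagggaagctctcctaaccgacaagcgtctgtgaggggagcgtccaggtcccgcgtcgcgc
Each held 2 matches, the last one 15 bases before the start of Cdk1 and 23 bases before that of Top2a. The letters were in 3 of the 5 promoters found for 5 of the 6 dividing-cell markers (60.0%), beside 11.7% of the promoters of all genes tested.

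RNA-binding proteins that set splicing and RNA stability in neurons were lower for 22 of 42 genes tested and higher for 11 (median log2 fold change -0.55). Ptbp2, a repressor of adult exons in young neurons, had 100.8, 96.4 and 93.6 CPM at P28, against 273, 225.1 and 233 CPM at P0 (log2 fold change -1.32, SE 0.09). Its relative Ptbp1 of non-neuronal cells was lower too (log2 fold change -0.95, SE 0.14). The muscleblind gene Mbnl2, which promotes adult splicing, had 345, 310 and 329 CPM at P28, against 50.4, 40.1 and 42.5 CPM at P0 (log2 fold change 2.92, SE 0.11). Cpeb1, which controls poly(A) tails and translation at synapses, had 71.4, 66.6 and 67.5 CPM at P28, against 6.45, 4.37 and 4.65 CPM at P0 (log2 fold change 3.84, SE 0.13). The 3 Igf2bp genes, fetal RNA stabilisers, were all lower: Igf2bp3 had 7.07, 6.04 and 4.47 CPM at P28, against 21.4, 16.6 and 19.6 CPM at P0, and Igf2bp1 had 2 reads at P28 and 73 at P0, a 46.2-fold ratio of pooled CPM in favour of P0 (exact 95% interval 12.3 to 389).

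Axon guidance genes were lower more often than higher in both the semaphorin and the ephrin families. Semaphorins and their plexin and neuropilin receptors steer growing axons, and 18 of 31 were lower and 9 higher (median log2 fold change -0.73). The ligand Sema3c had 58.9, 55.3 and 63.2 CPM at P28, against 368, 329 and 324 CPM at P0 (log2 fold change -2.52, SE 0.11, adjusted p = 2.33e-13). The receptor Nrp1 had 201.97, 174 and 194 CPM at P28, against 854, 753 and 786 CPM at P0 (log2 fold change -2.07, SE 0.09), and Nrp2 had 54.1, 53.2 and 58.1 CPM at P28, against 220.3, 237.7 and 247 CPM at P0 (log2 fold change -2.10, SE 0.08). Neither receptor overlapped between the ages. The plexin Plxnb3, known from oligodendrocytes, had 35.3, 35.3 and 47.8 CPM at P28, against 0.403, 1.86 and 1.06 CPM at P0 (log2 fold change 4.89, SE 0.27). Of the ligands alone, 10 of 20 were lower and 7 higher, and of the plexins 6 of 9 were lower and 2 higher.

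Of 41 ephrin, Slit, netrin and related genes 20 were lower and 11 higher (median log2 fold change -0.33). Among the 8 ephrin ligands 6 were lower and the other 2 were not called, and among 14 Eph receptors 6 were lower and 4 higher. The ligand Efna4 had 0.97, 0.661 and 0.54 CPM at P28, against 8.07, 6.97 and 9.62 CPM at P0 (log2 fold change -3.55, SE 0.31). Dcc, the receptor of netrin, had 35.6, 36.7 and 43.4 CPM at P28, against 159, 177 and 162 CPM at P0 (log2 fold change -2.10, SE 0.13), while its ligand Ntn1 had 7.35, 12.2 and 6.78 CPM at P28 and 6.05, 7.44 and 10.4 CPM at P0 (adjusted p = 0.808). Slit1, a repellent ligand, rose, with 189, 196 and 206.7 CPM at P28, against 50.02, 55.7 and 55.3 CPM at P0 (log2 fold change 1.86, SE 0.12). Epha10, an Eph receptor without kinase activity, had 49.3, 57.7 and 63.1 CPM at P28, against 7.66, 5.58 and 4.81 CPM at P0 (log2 fold change 3.36, SE 0.16). Of Wnt ligands, Frizzled receptors and antagonists 11 of 45 were higher and 14 lower (9 after thinning), a share of calls below that of all genes (55.6% against 64.2%). Dkk3 had 614, 507 and 638 CPM at P28, against 167, 123.3 and 146 CPM at P0 (log2 fold change 2.02, SE 0.12), and Fzd1 had 20.2, 17.03 and 18.3 CPM at P28, against 42.8, 77.6 and 83.1 CPM at P0 (log2 fold change -1.92, SE 0.18). Wnt10a had 5.68, 4.46 and 8.25 CPM at P28, against a single read in the P0 libraries together, a ratio of pooled CPM of 159.6 (exact 95% interval 28.32 to 6335).

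Matrix genes around synapses and nets were higher for 15 of 30 and lower for 10 (median log2 fold change 0.34). Hapln4 (8:70083457-70090862, plus strand, mm10), a link protein that fixes lecticans to hyaluronan around axons and cell bodies, had 134.7 to 208.5 CPM at P28, against 3.63, 2.98 and 2.93 CPM at P0 (log2 fold change 5.72, SE 0.28, adjusted p = 2.08e-11). It averaged 160.1 CPM at P28 and 3.18 CPM at P0, with the step between P7 and P14 in the plot by age. Adamts4, a protease that cuts lecticans, averaged 57.2 CPM at P28 and 5.33 CPM at P0 (log2 fold change 3.30). Has2, the main hyaluronan synthase of the embryo, had 0.416, 1.74 and 0.848 CPM at P28, against 25.4, 27.0 and 21.5 CPM at P0 (log2 fold change -4.51, SE 0.33). Reln, the positioning signal of Cajal-Retzius cells and later of interneurons, had 67.9, 105.01 and 74.6 CPM at P28, against 348, 362 and 371 CPM at P0 (log2 fold change -2.12, SE 0.13).

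Of 35 collagens 6 were higher and 12 lower (median log2 fold change -0.27), and 51.4% were called, below the 64.2% of all genes. Col1a1, the fibrous collagen of connective tissue, averaged 23.4, 134.7, 47.3, 43.4 and 41.9 CPM at P0, P7, P14, P21 and P28, and had 33.5, 42.8 and 49.4 CPM at P28, against 8.07, 41.6 and 20.5 CPM at P0 (adjusted p = 0.105). The P0 libraries were spread over this range and overlapped with P28. Col1a1 is itself 1 of the 12 leptomeningeal markers summed above, and the part of that tissue in its level was not tested. Col25a1, a membrane collagen of neurons, had 107.2, 114.6 and 104.3 CPM at P28, against 29.9, 25.8 and 27.8 CPM at P0 (log2 fold change 1.99, SE 0.14). Col2a1, the cartilage collagen, had 1.52, 0.165 and 0.848 CPM at P28, against 12.5, 26.3 and 22.5 CPM at P0 (log2 fold change -4.77, SE 0.46).

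Of 58 genes of the cytoskeleton and growth cone 32 were lower and 18 higher (median log2 fold change -0.55). The collapsin response mediators, which pass guidance signals to microtubules, gave the largest falls: Dpysl3 had 38.0, 43.3 and 40.0 CPM at P28, against 718, 826 and 819.7 CPM at P0 (log2 fold change -4.28, SE 0.11), and Dpysl5 had 60.9, 72.8 and 65.5 CPM at P28, against 1138, 1235 and 1259 CPM at P0 (log2 fold change -4.19, SE 0.12). Neurofilaments, which widen axons, were higher: Nefl had 834, 701 and 786 CPM at P28, against 267, 297 and 255 CPM at P0. Nefm had a log2 fold change of 0.75 (SE 0.13) and Nefh, the subunit of mature axons, of 4.34 (SE 0.18). Nefh had 77.4, 85.6 and 75.2 CPM at P28, against 2.42, 4.56 and 3.75 CPM at P0. Mapt, the tau protein of axons, had 262, 308 and 305 CPM at P28, against 1214, 1339 and 1299 CPM at P0 (log2 fold change -2.14, SE 0.10). Gap43 of growth cones had 149, 174 and 115.3 CPM at P28, against 624, 586 and 574 CPM at P0 (log2 fold change -2.02, SE 0.11).

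Calcium buffers, sensors and pumps had the highest median of the 26 lists, 1.47, with 27 of 33 genes higher and 2 lower. Itpka, a kinase of dendritic spines that turns over the calcium messenger, had 214.3, 237.2 and 199 CPM at P28, against 14.5, 19.6 and 15.8 CPM at P0 (log2 fold change 3.66, SE 0.16). Hpca, hippocalcin of pyramidal cells, had 1074, 939.5 and 1052 CPM at P28, against 101.3, 113.05 and 98.4 CPM at P0 (log2 fold change 3.29, SE 0.11), and Cabp7 had 104.2, 89.5 and 115.9 CPM at P28, against 10.1, 8.18 and 9.62 CPM at P0 (log2 fold change 3.50, SE 0.16). All 3 stood above P0 in every library. Calb1, calbindin of CA1 and granule cells, had 248, 218 and 179 CPM at P28, against 75.4, 64.6 and 61.8 CPM at P0 (log2 fold change 1.69, SE 0.13). The 2 lower genes were Calb2, calretinin of young granule cells and interneurons, and the calcium channel Ryr3. Calb2 had 38.7, 44.5 and 43.9 CPM at P28, against 69.4, 74.9 and 81.4 CPM at P0 (log2 fold change -0.84, SE 0.13), and Ryr3 lost its call without P0 replicate 3 or without P28 replicate 2.

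Of 29 genes of thyroid hormone and corticosteroid response 20 were higher and 5 lower (median log2 fold change 1.23). In rodents thyroid hormone is low around birth and rises in the following weeks, as background. Klf9 (19:23141226-23168134, plus strand, mm10), a transcription factor switched on by thyroid hormone and by corticosteroid, had 228.03, 237.1 and 259 CPM at P28, against 18.96, 20.8 and 18.7 CPM at P0 (log2 fold change 3.62, SE 0.12, adjusted p = 3.25e-15). Its mean was 19.5, 90.6, 220.4, 264 and 241 CPM at P0, P7, P14, P21 and P28. The glucocorticoid targets Tsc22d3 and Fkbp5 had log2 fold changes of 2.10 (SE 0.10) and 1.18 (SE 0.11), and Tsc22d3 had 328, 286 and 321 CPM at P28, against 77.9, 77.3 and 64.6 CPM at P0. The receptors Nr3c1 and Nr3c2 were both higher, by 1.23 (SE 0.12) and 1.05 (SE 0.13) on the log2 scale. Hsd11b1, which regenerates active corticosteroid within cells, had 35.6, 29.2 and 33.3 CPM at P28, against 7.26, 4.46 and 4.48 CPM at P0 (log2 fold change 2.74, SE 0.19). Crhbp, which binds the stress peptide CRH and is made by interneurons, had 39.4, 39.1 and 38.0 CPM at P28, against 1.21, 1.77 and 2.04 CPM at P0 (log2 fold change 4.40, SE 0.20). On the thyroid side Crym, which binds the hormone in the cell, was lower (log2 fold change -0.92, SE 0.14).

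Clock genes were higher for 18 of 25 and lower for 4 (median log2 fold change 1.25). The circadian clock runs on the activators Clock, Npas2 and Arntl, which bind the E-box CACGTG, and the repressors Per and Cry, and drives output factors such as Dbp, Hlf and Tef. The hour at which tissue was taken is not given in the labels, and its part in these values was not tested. The promoters of Tef and of Gm129, annotated as Ciart, a repressor of the clock, hold perfect E-boxes, in capitals. They are 300 bases each from RefSeq on GRCm38.p6, on the plus strand at chr15:81811164-81811463 for Tef and on the minus strand at chr3:95882179-95882478 for Gm129.
Tef: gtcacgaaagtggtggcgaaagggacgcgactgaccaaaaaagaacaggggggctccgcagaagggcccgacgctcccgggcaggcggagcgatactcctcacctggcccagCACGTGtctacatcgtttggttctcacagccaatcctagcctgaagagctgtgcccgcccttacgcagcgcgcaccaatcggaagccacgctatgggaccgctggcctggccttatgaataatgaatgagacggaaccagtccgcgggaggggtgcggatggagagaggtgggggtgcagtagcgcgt
Gm129: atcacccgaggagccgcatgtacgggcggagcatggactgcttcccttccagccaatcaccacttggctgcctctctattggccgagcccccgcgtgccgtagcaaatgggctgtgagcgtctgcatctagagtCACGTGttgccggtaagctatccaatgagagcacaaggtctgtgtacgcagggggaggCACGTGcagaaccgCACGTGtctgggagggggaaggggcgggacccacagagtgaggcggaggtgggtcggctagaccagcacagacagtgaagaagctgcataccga
Each of the 2 promoters of Tef held 1 match, and in the one shown it lies 138 bases before the start. Gm129 held 3, the last of them 44 bases before its start. The letters were in 6 of 29 clock promoters (20.7%), beside 9.48% of the promoters of all genes tested. Both promoters of Tef are among the 6. The share was larger for genes of lysosomes and autophagy, with 12 of 41 promoters (29.3%). It was also larger for HMG, polycomb and histone chaperone proteins, with 8 of 37 (21.6%). In the remaining lists, markers aside, it was at most 17.9%, for cholesterol and DNA methylation genes. A share of this size was therefore not particular to clock genes.

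Dbp (7:45705088-45710203, plus strand, mm10) had 74.3, 77.6 and 65.1 CPM at P28, against 4.03, 5.95 and 4.32 CPM at P0 (log2 fold change 3.86, SE 0.17, adjusted p = 1.81e-13). Hlf had 133.3, 106.4 and 121.4 CPM at P28, against 10.1, 10.7 and 13.8 CPM at P0 (log2 fold change 3.33, SE 0.18). Tef had 492, 497 and 449.6 CPM at P28, against 107.3, 102.6 and 96.7 CPM at P0 (log2 fold change 2.24, SE 0.09), so all 3 output factors of this family were higher without overlap. Gm129 had 17.9, 23.6 and 22.6 CPM at P28, against 2.42, 2.42 and 2.93 CPM at P0 (log2 fold change 3.01, SE 0.23). Per1, Per2 and Per3 were all higher, with log2 fold changes of 2.31 (SE 0.23), 0.62 (SE 0.12) and 3.23 (SE 0.18). Cry1 was lower (log2 fold change -0.53, SE 0.12), and Arntl had 37.3, 30.3 and 30.1 CPM at P28 and 37.9, 34.6 and 43.9 CPM at P0 (adjusted p = 0.0517). Nfil3, which binds the same sites as Dbp and opposes it, had 11.2, 10.7 and 14.11 CPM at P28, against 38.7, 38.6 and 45.6 CPM at P0 (log2 fold change -1.77, SE 0.15). The genes did not all move steadily with age: Per1 averaged 3.85, 6.78, 11.7, 45.1 and 19.4 CPM at P0, P7, P14, P21 and P28, and Gm129 averaged 2.59, 5.34, 8.92, 36.9 and 21.4 CPM, both highest at P21.

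**Figure D4:**
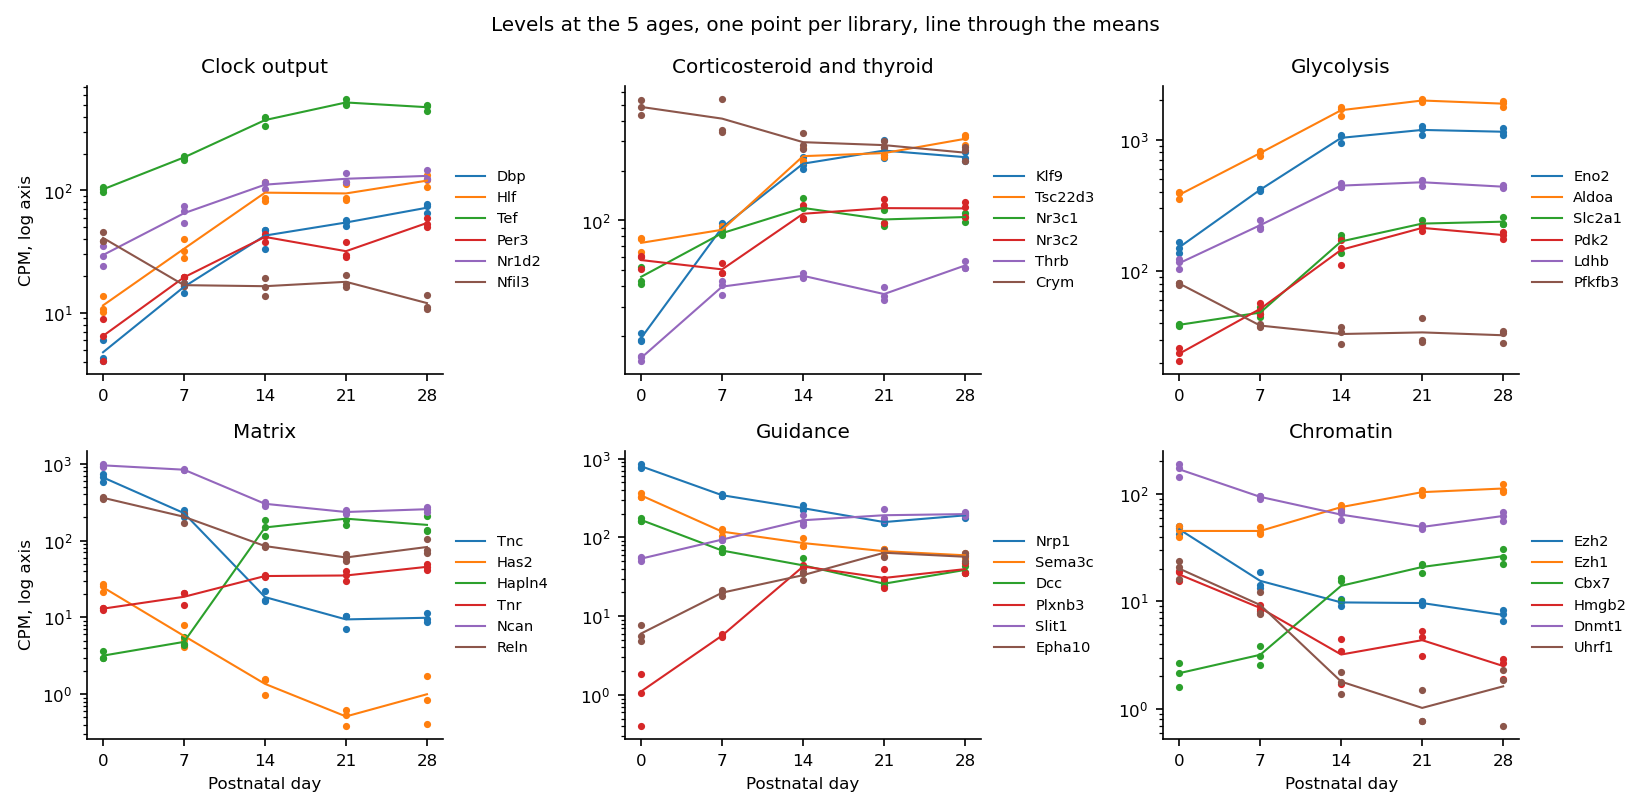
Level of 36 genes in 6 groups at the 5 ages. Each point is a library and lines join the means of 3, the horizontal axis is the postnatal day and the vertical axis CPM on a log scale. Dbp, Klf9 and Eno2 are higher at each age up to P14, Hapln4 steps up between P7 and P14, and Tnc, Nrp1 and Ezh2 are highest at P0.

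Of 35 neurotrophin and growth factor genes 18 were higher and 5 lower (median log2 fold change 0.28), and 65.7% were called, near the 64.2% of all genes. Bdnf, the activity-regulated neurotrophin, had 55.7, 46.8 and 58.4 CPM at P28, against 22.995, 21.6 and 19.7 CPM at P0 (log2 fold change 1.34, SE 0.12), and was highest in the mean at P14, at 79.99 CPM. Its receptor Ntrk2 had 442, 451 and 469 CPM at P28, against 232, 228.2 and 210.9 CPM at P0 (log2 fold change 1.03, SE 0.07). Both were higher without overlap. Igf1, the insulin-like growth factor, had 15.8, 13.2 and 16.1 CPM at P28, against 58.9, 56.9 and 53.1 CPM at P0 (log2 fold change -1.90, SE 0.16). Fgf1 rested on P28 replicate 1, with 51.2, 15.96 and 16.3 CPM at P28, against 2.82, 7.996 and 8.48 CPM at P0 (log2 fold change 1.86, SE 0.63, adjusted p = 0.0236). Without P28 replicate 1 the log2 fold change of Fgf1 was 1.12 (adjusted p = 0.082), and the call was lost without any of the P0 libraries too.

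Of 40 genes of lysosomes and autophagy 29 were higher and 1 lower (median log2 fold change 0.82), and after thinning the libraries to the smallest total none was lower. Cathepsins, the proteases of lysosomes, were higher for 6 of 7. Ctss, the cathepsin of microglia, had 50.5, 51.8 and 48.7 CPM at P28, against 9.68, 9.39 and 8.72 CPM at P0 (log2 fold change 2.46, SE 0.15), and Ctsd had 509, 576 and 589 CPM at P28, against 224.7, 238.9 and 238.9 CPM at P0 (log2 fold change 1.25, SE 0.10). Tfeb, the factor that switches on lysosome genes, had 11.8, 13.1 and 15.03 CPM at P28, against 2.42, 2.98 and 2.69 CPM at P0 (log2 fold change 2.27, SE 0.25). The lower member was Gabarap, by -0.24 (SE 0.08) on the log2 scale. The 6 microglial markers summed to 337 to 350.3 CPM at P28 and 116.5 to 124.98 CPM at P0, and their part was not tested.

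Of 35 genes of MHC class I, complement and interferon 19 were higher and 2 lower (median log2 fold change 1.21), and with scaling by library totals 4 were lower. The list held C1ql2 and C1ql3, which are C1q-like and not complement factors, and of the other 33 members 17 were higher and 2 lower (median 1.05). The 3 chains of complement C1q, made by microglia, were all higher: C1qa had 15.7, 14.22 and 16.3 CPM at P28, against 4.03, 5.21 and 5.54 CPM at P0 (log2 fold change 1.57, SE 0.21). C1ql2 (1:120340582-120343174, plus strand, mm10), an organiser of mossy fibre synapses, had 49.2, 50.8 and 53.0 CPM at P28, against 0.807, 1.39 and 1.22 CPM at P0 (log2 fold change 5.34, SE 0.27). The class I heavy chain H2-D1 had 122.5, 213.4 and 168 CPM at P28 and 127.9, 86.7 and 138 CPM at P0 (adjusted p = 0.364), so that its groups overlapped, while the light chain B2m had 29.7, 30.2 and 34.8 CPM at P28, against 12.1, 11.4 and 9.62 CPM at P0 (log2 fold change 1.55, SE 0.19). Reads of class I heavy chains can be split between close copies.

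Of 37 genes of metallothioneins, iron and oxidative defence 20 were higher and 8 lower (median log2 fold change 0.55). Trf, the iron carrier transferrin, which oligodendrocytes make in the brain, had 542, 477 and 620 CPM at P28, against 18.6, 20.4 and 17.3 CPM at P0 (log2 fold change 4.86, SE 0.16). The metallothioneins Mt1 and Mt3, which bind zinc, were higher, with log2 fold changes of 2.39 (SE 0.22) and 2.33 (SE 0.16). Ferritin divided by chain, since Ftl1 had 194, 202.98 and 201.3 CPM at P28, against 447, 451 and 475 CPM at P0 (log2 fold change -1.20, SE 0.08), and Fth1 averaged 1438 CPM at P28 and 748 CPM at P0 (log2 fold change 0.94). Ferritin genes have processed copies, and these values are uncertain for that reason. Of 38 imprinted genes, which are read from 1 parental copy, 11 were higher and 16 lower (median log2 fold change -0.23). Impact, an inhibitor of the stress kinase GCN2, had 357, 335 and 297 CPM at P28, against 74.6, 59.9 and 57.5 CPM at P0 (log2 fold change 2.39, SE 0.13), while H19, the fetal non-coding RNA, had 0.832, 0.827 and 0.54 CPM at P28, against 2.82, 3.998 and 10.4 CPM at P0 (log2 fold change -3.09, SE 0.49). Of 24 long non-coding RNAs 5 were higher and 5 lower, and 41.7% were called, beside 64.2% of all genes. Without P28 replicate 3, and with scaling by library totals, 3 were higher, and after thinning 3 were higher and 3 lower. Malat1 of the nucleus had 322, 208.8 and 432 CPM at P28 and 239.2, 194 and 204.6 CPM at P0 (adjusted p = 0.0727), and Neat1 had 13.7, 13.6 and 18.2 CPM at P28, against 1.21, 2.05 and 3.42 CPM at P0 (log2 fold change 2.58, SE 0.31).

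Genes that mark fields of the hippocampus and pyramidal identity were split in direction. Of 48 tested 17 were higher and 23 lower (median log2 fold change -0.38). Rgs14 (13:55369732-55384687, plus strand, mm10), a signalling regulator of CA2 pyramidal cells, had 130.7, 127.9 and 135.5 CPM at P28, against 2.82, 4.37 and 3.59 CPM at P0 (log2 fold change 5.10, SE 0.15, adjusted p = 5.57e-16). Wfs1 of CA1 had 314, 296 and 338 CPM at P28, against 31.1, 41.1 and 37.3 CPM at P0 (log2 fold change 3.08, SE 0.20). Dsp, desmoplakin of granule cells, had 32.3, 26.8 and 44.6 CPM at P28, against 0.807, 1.49 and 1.63 CPM at P0 (log2 fold change 4.54, SE 0.29). All 3 of these products were higher at P28 in every library. Zbtb20, the factor needed for hippocampal fate, had 171, 175 and 217.3 CPM at P28, against 338, 435 and 427 CPM at P0 (log2 fold change -1.10, SE 0.13), and Prox1 of granule cells had 41.0, 29.2 and 43.5 CPM at P28, against 65.4, 57.4 and 64.2 CPM at P0 (log2 fold change -0.71, SE 0.14). Nts, the peptide neurotensin, had 7.35, 4.88 and 5.47 CPM at P28, against 93.6, 76.8 and 88.7 CPM at P0 (log2 fold change -3.89, SE 0.15).

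Genes in common use as references for RNA amounts were not all level between the ages. Of 16 tested 5 were higher and 2 lower (median log2 fold change 0.03). The share called was 43.75%, below the 64.2% of all genes. Gapdh had 760.2, 772 and 686 CPM at P28, against 294, 327 and 340.1 CPM at P0 (log2 fold change 1.20, SE 0.09, adjusted p = 3.70e-10). Actb had 989, 861 and 885 CPM at P28, against 1336, 1533 and 1535 CPM at P0 (log2 fold change -0.69, SE 0.09, adjusted p = 1.03e-06). Sdha, Hprt, Pgk1 and B2m were higher too, by 1.24, 1.13, 1.08 and 1.55 on the log2 scale, and Rplp0 was lower. The 95% intervals of the log2 fold change included 0 for the other 9, and among these they were narrowest for Ppia (-0.27 to 0.06), Ywhaz (-0.22 to 0.21) and Rpl13a (-0.25 to 0.18). With scaling by library totals Ppia was called lower as well, as was Tbp.

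**Figure D5:**
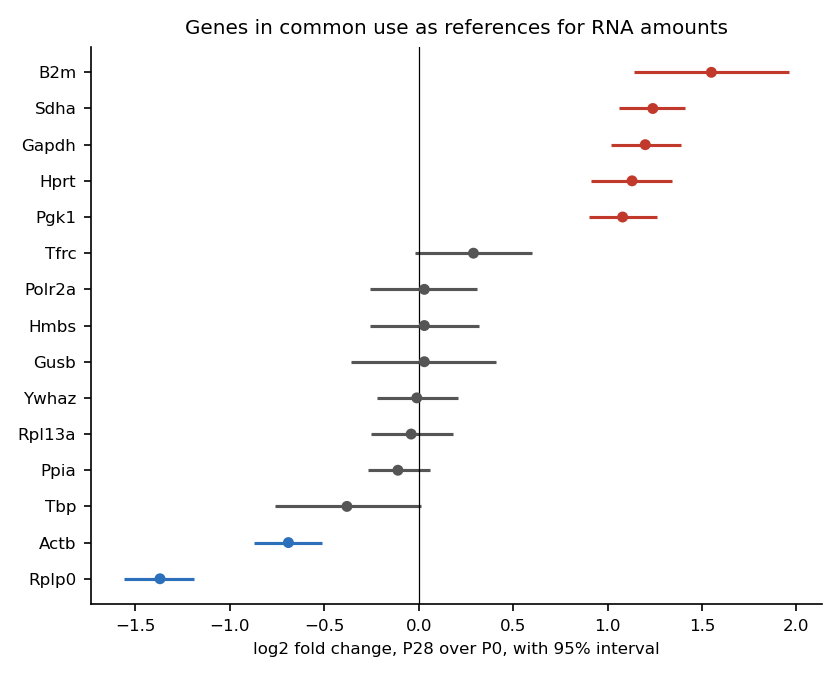
Log2 fold change of 15 of the 16 genes in common use as references, P28 over P0, with its 95% interval as a horizontal line (n = 3 libraries per age). Red genes were called higher, blue lower and grey not called. Values run from -1.37 for Rplp0 to 1.55 for B2m.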

How the data were processed

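Gene counts were deposited by the authors as raw, unnormalized counts per gene, 1 column per library. Per the submitters' processing notes, the tools were STAR, HTSeq, Trim Galore, cutadapt and FastQC, with mm10 and hg19 as builds, and the notes as used here give no versions or order. Whether counting used strand is not given in the sources used here, so reads of a gene and of an antisense partner cannot be told apart. The table held 23337 genes and 92 rows of ERCC spike-ins, which were left out and had at most 4 reads in a tissue library.

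The 15 tissue libraries (3 per age at 5 ages) were fitted with edgeR 4.0.16 in R 4.3.3, with filterByExpr, TMM scaling, age as the only factor and the robust quasi-likelihood F test. P28 was contrasted with P0, p-values were adjusted by the Benjamini-Hochberg method over 14737 genes, and a gene was called under 0.05. The SE beside a log2 fold change was derived from its F statistic. Where the labels do not say what was independent between replicates, p-values measure the spread between these libraries, which may be technical. CPM per library used TMM-scaled totals, and 3 reads correspond to 0.0905 CPM over the P28 libraries and 0.127 CPM over the P0 libraries. Intervals of ratios cover counting error only. DESeq2 1.42.0 was an alternative.

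The genes compared and the lists were chosen with earlier results of these data known. The text names the 10 largest gains and losses of mean CPM, the 6 largest log2 changes each way among genes with at least 50 CPM, the pairs, the reference genes, the marker genes, and for each list the 2 largest changes each way among called members with at least 5 CPM. Some genes that this rule names are not reported here, though the counts include them. Other list members named, the genes plotted by age and the subgroups of lists were chosen after their values were seen. Coordinates are those of GENCODE release M21 on mm10, where 22804 symbols were placed, and RefSeq promoters were found for 11433 of the genes tested.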

Additional observations from a re-analysis of the deposited data

How the results depend on the processing

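The counts of 4846 genes higher and 4619 lower stayed within 1.5 times under every alternative run. They were 4849 and 4606 with DESeq2's size factors in edgeR, 4778 and 4528 with DESeq2, 4930 and 4586 without a filter on low counts, 4733 and 4599 with the P28 and P0 libraries alone, and 3887 and 3822 after thinning libraries to the smallest total. Leaving out 1 library at a time gave 4401 to 4714 higher and 4270 to 4494 lower. Scaling by library totals gave 4082 and 5654. Same-numbered P28 and P0 libraries deviated together with correlations of 0.137, 0.104 and 0.037, so the numbers were not taken to pair the samples, and not every library correlated best with its own number. The replicate block gave 4797 and 4554. Of 3973 values of 307 named genes under the alternatives, 49 lost a call (20 genes), 45 gained one (23 genes) and none changed direction while called. The call of Epha7 was lost in most alternatives. Of 676 list counts 16 moved by more than 1.5 times, in 10 counts of calls. The smallest library, P0 replicate 1, limits what can be detected at P0, since 3 reads are 1.28 CPM there.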
